A study of Mus musculus with 6 samples.

Results

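The hypoxia-inducible factor (HIF) pathway was followed in the livers of Pex5 knockout mice through 10 genes, chosen by name. They are the factor subunits Hif1a, Epas1 and Arnt, the oxygen sensors Egln1 and Egln3, the ubiquitin ligase component Vhl, and the targets Vegfa, Bnip3, Adm and Ankrd37. All 10 were found among the 18193 genes that the Affymetrix mouse arrays measure with a probe set of 1 gene symbol, through 23 of 45037 probe sets. The probe set with the highest mean represents each gene, and the remaining ones are given beside it. The samples were whole livers of male mice aged 10 weeks, 3 of genotype WT and 3 of genotype L Pex5 -/- (KO), 1 array per liver. The labels give both groups the mixed background Alb-Cre Tac:[Sw]fBR. In Alb-Cre mice the albumin promoter drives the recombinase in hepatocytes. Whole liver holds other cell types too, whose Pex5 was not measured apart. Pex5 carries newly made enzymes into peroxisomes. The series design calls the arrays biological replicates.

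HIF is a pair of an oxygen-controlled alpha subunit and the stable beta subunit encoded by Arnt. Hif1a encodes HIF-1alpha and Epas1 encodes HIF-2alpha. When oxygen is present, prolyl hydroxylases of the EGLN (PHD) family mark the alpha subunits, and the VHL protein then leads them to destruction by the proteasome. When oxygen is low, the alpha subunits escape, pair with ARNT and bind short DNA elements beside genes of glycolysis, blood vessel growth and mitochondrial turnover. In the liver, HIF-2alpha is best known for erythropoietin, iron and lipid control, and oxygen falls from the portal to the central vein. Since the alpha subunits are controlled mainly as proteins, transcript levels do not measure HIF activity.

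The core letters that HIF binds were searched for in the 250 bases before the start of each gene, taken from RefSeq promoters of the mouse build GRCm38.p6. The letters were ACGTG and GCGTG, read on both strands, so that CACGT and CACGC count as well, and a CACGTG counts once on each strand. The promoter table matched 9 of the 10 genes, all but Epas1, with 2 starts for Vegfa. A core was present in 8 of these 9 genes, the exception being Vhl. For Vegfa it was present at 1 of the 2 starts only, in chr17:46025164-46025413 on the minus strand. That stretch lies downstream of the other start, whose 250 bases (chr17:46032378-46032627) held 0 cores. Vegfa is therefore counted through the downstream start alone, a stretch within the gene as read from its upstream start. Counted by promoter, 8 of 10 (80.0%) held a core. Of the promoters of all genes on the arrays, 48.9% held at least 1 core over the same 250 bases, so a match is common. The promoters of Hif1a and of 3 genes that hypoxia induces in many cells are shown, chosen after their transcript levels were seen. Capitals mark the cores, and the sequences run 5′ to 3′ on the strand of the gene, ending at the base before the start.
Hif1a, chr12:73907617-73907866, plus strand: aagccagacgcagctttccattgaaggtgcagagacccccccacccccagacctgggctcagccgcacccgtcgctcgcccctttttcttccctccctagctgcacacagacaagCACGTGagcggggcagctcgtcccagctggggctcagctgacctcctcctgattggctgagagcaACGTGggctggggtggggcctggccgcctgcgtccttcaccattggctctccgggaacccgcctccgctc
Egln3, chr12:54203875-54204124, minus strand: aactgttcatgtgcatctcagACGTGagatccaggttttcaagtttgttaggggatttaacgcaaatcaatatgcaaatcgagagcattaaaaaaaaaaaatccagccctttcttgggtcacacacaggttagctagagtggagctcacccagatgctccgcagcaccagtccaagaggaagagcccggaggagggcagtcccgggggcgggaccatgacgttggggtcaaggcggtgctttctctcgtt
Bnip3, chr7:138909507-138909756, minus strand: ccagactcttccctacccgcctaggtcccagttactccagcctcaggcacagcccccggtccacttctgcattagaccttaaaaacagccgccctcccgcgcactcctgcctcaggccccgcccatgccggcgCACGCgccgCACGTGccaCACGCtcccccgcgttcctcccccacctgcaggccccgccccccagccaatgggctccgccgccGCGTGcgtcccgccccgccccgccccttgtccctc
Ankrd37, chr8:45999851-46000100, minus strand: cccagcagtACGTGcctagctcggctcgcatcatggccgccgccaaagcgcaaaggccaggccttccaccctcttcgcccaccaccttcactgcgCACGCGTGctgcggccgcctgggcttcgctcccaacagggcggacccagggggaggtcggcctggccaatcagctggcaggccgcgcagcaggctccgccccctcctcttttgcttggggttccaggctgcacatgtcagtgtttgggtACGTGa
Hif1a held 3 matches, of which a pair forms CACGTG. Egln3 held 1, at 229 bases before the start. Bnip3 held 5, the most of these genes, of which a pair forms CACGTG too. Ankrd37 held 4, of which a pair overlaps in CACGCGTG. In KO livers Hif1a rose, Bnip3 fell, and Egln3 and Ankrd37 did not pass the test, as described next. Ankrd37 was below the background level on all arrays. No binding was measured.

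Values below are log2 levels made by the authors with RMA, and differences are KO minus WT with the standard error (SE) of limma's fit over all 18193 genes. A gene is called changed at a Benjamini-Hochberg adjusted p under 0.05. Such calls were made for 24.0% of all genes, 14.2% being higher and 9.75% lower in KO. Of the 10 HIF pathway genes, 1 was higher (Hif1a) and 2 were lower (Epas1 and Bnip3), which is near that background. The KO arrays lay wholly above the WT arrays in 3 of the 10, against 22.1% of all genes, and wholly below in 3, against 22.6%, which is 44.8% for both directions together. Pex5 itself had a level of 9.04 ± 0.14 in the WT livers and 9.22 ± 0.11 in the KO livers (SD, n = 3), and whether its probe set covers the deleted part is not given in the sources used here. Within a group the arrays correlated at r of at least 0.9892. RMA values are relative. The mean of 45 bacterial and phage control probe sets was lower in KO, and control centring, which sets each array to that mean, adds 0.44 to every difference. After control centring 11086 of all genes were higher and 475 lower, against 2589 and 1774 as deposited. There 6 of the 10 HIF pathway genes were higher and 0 lower by limma (7 and 0 at an unadjusted p under 0.05), so directions are given relative to the bulk of the genes.

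**Figure D1:**
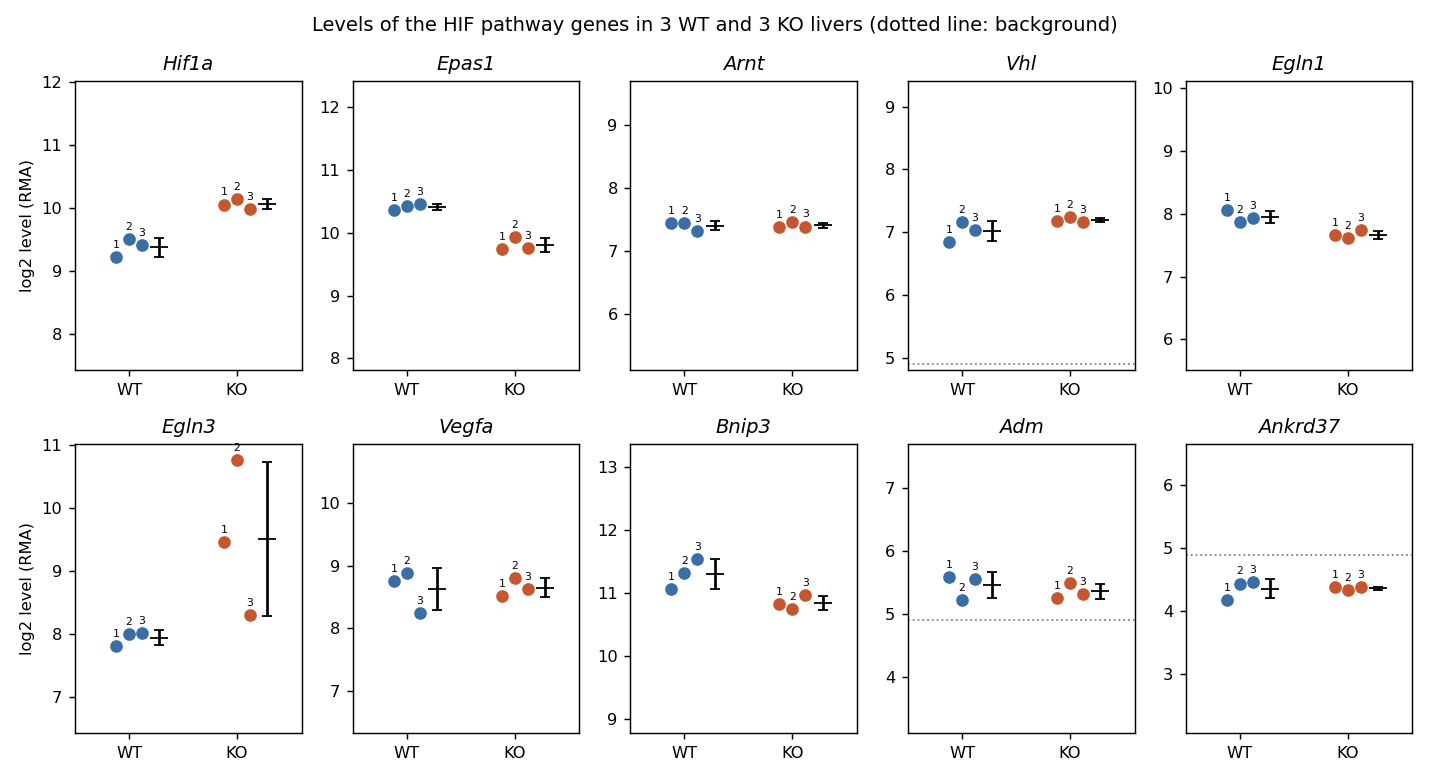
Log2 level of each gene on each array, with the replicate number above each point and the mean and SD (bar) beside each group of 3 livers; every panel spans the same range. The KO livers lie apart from WT for Hif1a, Epas1, Egln1, Egln3, Bnip3 and Vhl, and Egln3 ranges from 8.30 to 10.76 over the 3 KO livers.

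The alpha subunits moved apart. Hif1a, which encodes the broadly expressed HIF-1alpha, read 9.21, 9.51 and 9.41 in WT replicates 1 to 3 and 10.06, 10.14 and 9.98 in KO replicates 1 to 3. The groups did not overlap, and the lowest KO liver stood above the highest WT liver. Hif1a rose 1.61-fold (0.68 ± 0.11 SE, limma adjusted p = 0.00331), and its difference stayed between 0.60 and 0.75 with any 1 array left out. Its other probe sets were less clear. They differed by 0.38 (adjusted p = 0.124 over all probe sets) and 0.19 (0.298), and the dimmest by -0.33 (0.114) with all 6 arrays below the background level of 4.90. The mean over its 4 probe sets differed by 0.23 and did not pass (adjusted p = 0.0804). The rise therefore rests on the brightest probe set.

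Epas1, which encodes HIF-2alpha and is abundant in endothelial cells as well as in hepatocytes, went the other way. It read 10.36, 10.42 and 10.46 in WT and 9.74, 9.94 and 9.75 in KO. All KO livers were below all WT livers. Epas1 fell 1.52-fold (-0.61 ± 0.09 SE, adjusted p = 0.00331). Its other probe set, at 7.16 to 7.24 in WT and 6.20 to 6.58 in KO, fell as well (-0.79, adjusted p = 0.00344 over all probe sets). Control centring ended the call, the difference then being -0.17 (adjusted p = 0.154). The mean log2 level of 10 endothelial markers was 7.54 to 7.79 in WT and 7.57 to 7.66 in KO, so the KO range lay within that of WT. That mean includes Lyve1, which rose by 2.06 from WT arrays below background. The median difference of the 10 markers was -0.26, and 9 were negative. The KO livers lay wholly below WT in 6 of them, against 22.6% of all genes, and wholly above in 1. Of the 10, 4 were lower and 1, Lyve1, was higher, against 9.75% and 14.2% of all genes. With array median centring 1 was lower, and with control centring 0 were lower and 4 higher. Their part in the fall of Epas1 was not tested, and in whole liver fewer cells of a type and less RNA per cell cannot be told apart.

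Because both genes were read on the same arrays, their unequal change does not depend on how the arrays are centred. The log2 level of Hif1a minus that of Epas1 was -1.15 to -0.91 in the WT livers and 0.21 to 0.31 in the KO livers, a change of 1.29. The exact two-sided permutation p was 0.1, the smallest that 3 against 3 livers can give. It stayed 0.1 after adjustment over the 3 gene pairs compared. In each pair the KO livers lay wholly above WT for a gene and wholly below for its partner. The p was therefore fixed once the pairs were picked, and it adds no support to an unequal change. Levels of the genes themselves cannot be compared, since each probe set has its own brightness. The size of the change also depends on the probe sets. With the mean of probe sets Hif1a differed by 0.23, which was not called, and Epas1 by -0.70, which was.

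Arnt, which encodes the shared beta subunit, did not pass the test. It stood at 7.31 to 7.44 in WT and 7.38 to 7.45 in KO, so the groups overlapped. The difference was 0.01 ± 0.09 SE (adjusted p = 0.946), with a 95% interval from -0.19 to 0.21. Its 4 other probe sets differed by -0.18 to 0.05, and none passed (limma over all probe sets), with 0 of them at an unadjusted p under 0.05. Of the alternatives run, control centring alone gave it a call (0.45, adjusted p = 0.00485).

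The oxygen sensors differed among themselves. Egln1 encodes PHD2, the main HIF prolyl hydroxylase of most tissues. Its transcript read 8.06, 7.87 and 7.93 in WT and 7.66, 7.61 and 7.74 in KO, without overlap. The difference of -0.29 ± 0.09 SE missed the threshold (adjusted p = 0.0612). It passed among the 12032 genes above background (0.0453) and with quantile normalization (-0.41, adjusted p = 0.0194), and its sign turned after control centring (0.16). The other probe set of Egln1 differed by -0.12, and its groups overlapped.

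Egln3 encodes PHD3, which is itself induced by HIF in many cells and so acts as a feedback sensor. It read 7.80, 8.00 and 8.01 in WT and 9.46, 10.76 and 8.30 in KO. All KO livers were above all WT livers, but KO replicate 2 was far above the others and KO replicate 3 lay just above WT. The mean difference of 1.57 ± 0.51 SE, or 2.97-fold, was larger in size than those of 97.9% of all genes. It did not pass (adjusted p = 0.0599), with an SD of 1.23 among the KO livers and 0.12 among the WT livers. The 95% interval ran from 0.38 to 2.75. It passed with a replicate block (adjusted p = 0.0462) and after control centring (2.01, adjusted p = 0.00827). Without KO replicate 3 the difference was 2.17 and passed (adjusted p = 0.00778), and without KO replicate 2 it was 0.94 and did not (0.0974). The dimmer probe set kept the order of the KO livers, at 6.58, 7.00 and 6.02 in KO replicates 1 to 3 against 5.91 to 6.24 in WT, and differed by 0.49 (adjusted p = 0.186 over all probe sets). Relative to Egln1 on the same array, Egln3 was higher by 1.85 in KO than in WT (exact two-sided permutation p = 0.1, the smallest possible). That p was fixed too, since the KO livers lay wholly above WT for Egln3 and wholly below for Egln1.

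Egln2, the remaining member of the family, encodes PHD1 and was singled out after its values were seen. It differed by 0.25 ± 0.085 SE with all KO livers above WT, and it did not pass (adjusted p = 0.0663). It was called in 6 of 15 alternatives, all of them without an array left out, such as array median centring (0.29, adjusted p = 0.0415). Vhl, which encodes the ligase component that recognises hydroxylated HIF-alpha, stood at 6.85 to 7.16 in WT and 7.17 to 7.24 in KO. The groups nearly touched without overlapping, and the difference of 0.18 ± 0.10 SE did not pass (adjusted p = 0.243). Its other probe set overlapped (0.10).

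**Figure D2:**
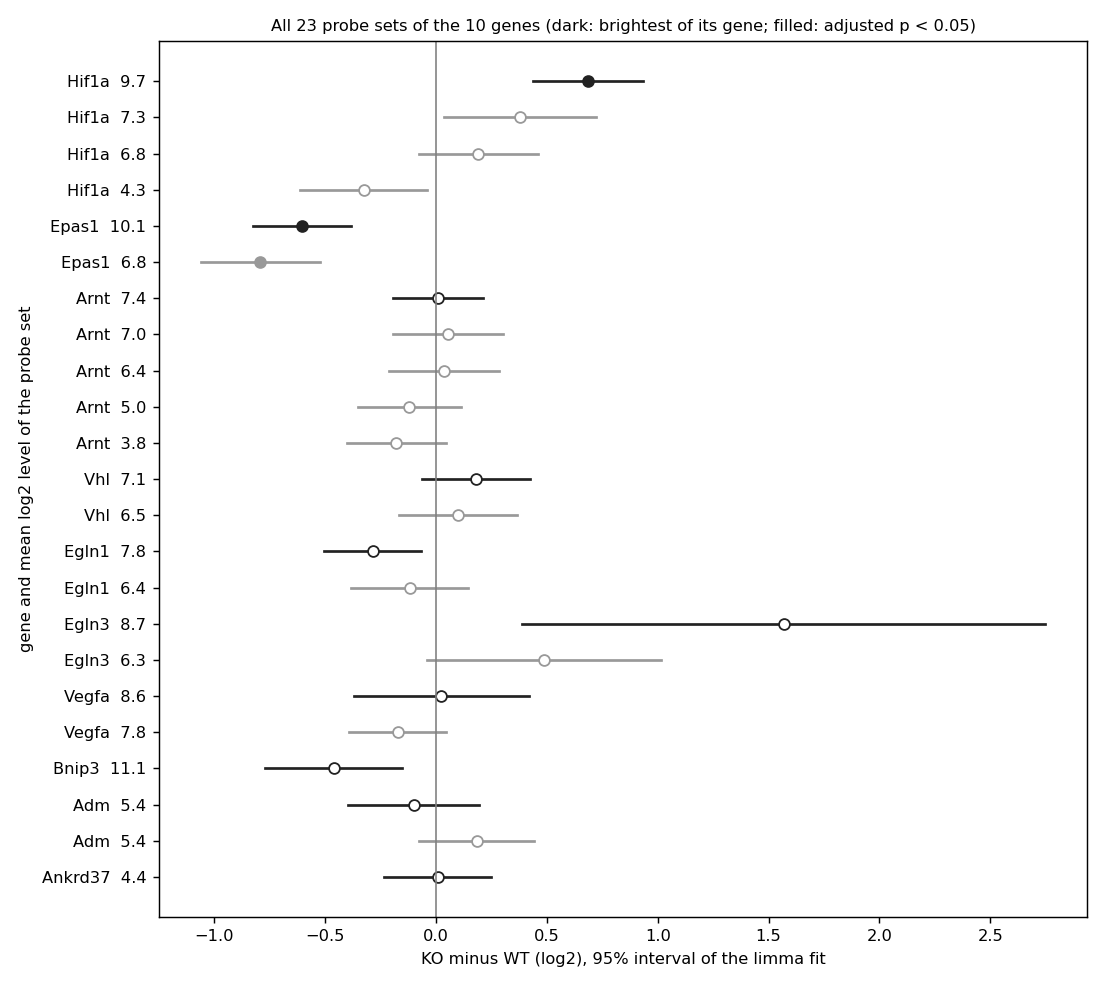
KO minus WT difference (log2, horizontal axis) of all 23 probe sets of the 10 genes, with the 95% interval of a fit over all 45037 probe sets; names carry the mean log2 level of the probe set. Both probe sets of Epas1 lie below 0, the Hif1a probe sets run from -0.33 to 0.68, and Egln3 has the widest interval.

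The classical targets did not rise together. Bnip3, which encodes a mitochondrial outer membrane protein of mitophagy and cell death, read 11.07, 11.32 and 11.54 in WT and 10.83, 10.74 and 10.96 in KO. All KO livers were below all WT livers. Bnip3 fell 1.38-fold (-0.46 ± 0.13 SE, adjusted p = 0.0402), at the edge of the threshold. The call was lost without WT replicate 2 or 3 or any KO array (adjusted p = 0.0608 to 0.139), in the fit over all probe sets (0.0522), and after control centring (-0.022, adjusted p = 0.892). It has 1 probe set. Compared with Egln3 on the same array, Bnip3 was lower by 2.03 in KO than in WT (-2.03, exact two-sided permutation p = 0.1, the smallest possible). This p was likewise fixed, since the KO livers lay wholly below WT for Bnip3 and wholly above for Egln3.

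Vegfa encodes the main growth factor of blood vessels, made by hepatocytes and sensed by sinusoidal endothelium. It stood at 8.25 to 8.88 in WT and 8.51 to 8.81 in KO, and the KO values lay within the WT range. The difference was 0.02 ± 0.17 SE (adjusted p = 0.926) with a 95% interval from -0.37 to 0.42. WT replicate 3 was the lowest at 8.25, and without it the difference was -0.16 (adjusted p = 0.358). That liver was also the lowest in macrophage markers, at a mean log2 level of 7.57 against 8.61 and 8.77 in the other WT livers and 7.96 to 8.40 in KO, and the part of this in Vegfa was not tested. The other probe set of Vegfa differed by -0.17, with the KO livers below WT (adjusted p = 0.251 over all probe sets).

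Adm encodes adrenomedullin, a vessel-relaxing peptide. It stood close to background, at 5.22 to 5.59 in WT and 5.25 to 5.49 in KO, and differed by -0.10 ± 0.13 SE (adjusted p = 0.588). Its other probe set differed by 0.18, so the pair had opposite signs. Ankrd37, a small ankyrin repeat protein induced by HIF-1 in many cell types, read 4.18 to 4.46 in WT and 4.34 to 4.38 in KO. All 6 arrays were below the background of 4.90, so no fold is given.

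**Figure D3:**
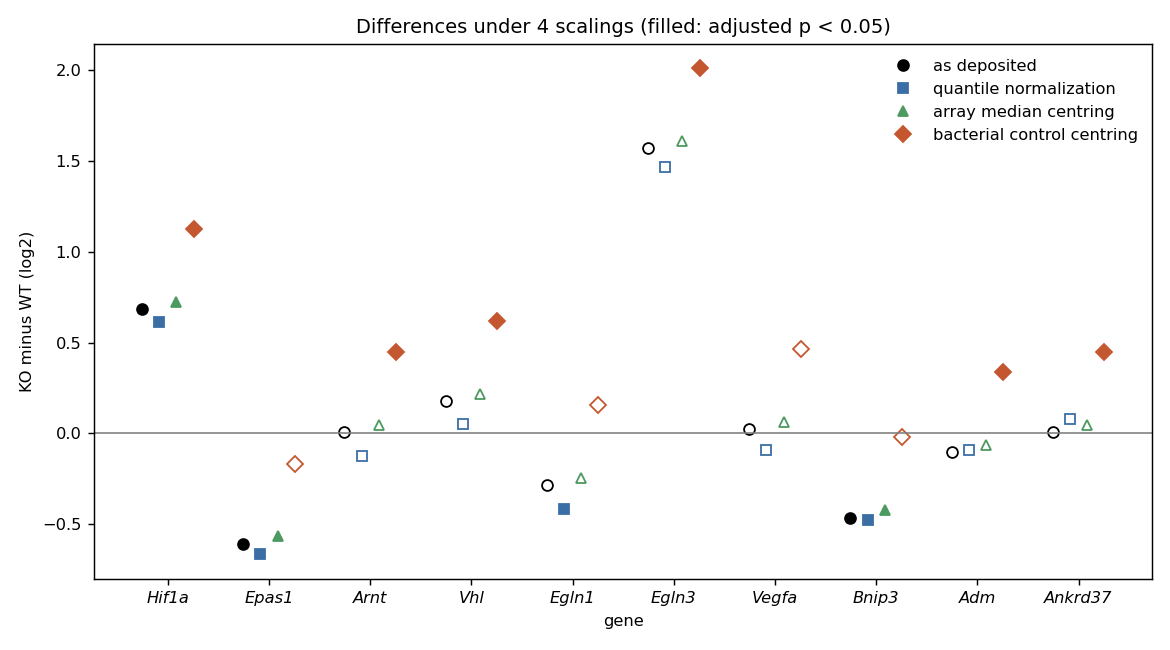
KO minus WT difference (log2, vertical axis) of each gene as deposited and under 3 other scalings, filled where the adjusted p was under 0.05. Hif1a lies above 0 and Epas1 below 0 under all 4, while control centring lifts every gene by 0.44.

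Other genes of the pathway were taken from 6 lists with 72 measured genes, of which 15 were higher and 7 lower in KO. These counts were 9 and 2 without KO replicate 1, 8 and 3 without KO replicate 2, and 50 and 1 after control centring, and 4 were lower without KO replicate 3. Their counts read against the same background of 14.2% higher and 9.75% lower, and the median difference over all genes was -0.055. HIF control genes, meaning further subunits, hydroxylases, ligase parts and coactivators, numbered 14, of which 4 were higher and 0 lower by limma (9 and 0 at an unadjusted p under 0.05, against 20.0% and 18.5% of all genes), with a median of 0.28. The KO livers lay wholly above WT in 7 of them and wholly below in 0, against 22.1% and 22.6% of all genes. Siah1a, a ubiquitin ligase that can degrade prolyl hydroxylases, rose 2.00-fold (1.00 ± 0.16 SE, adjusted p = 0.00412). Its relative Siah2 rose by 0.51, and the acetyltransferases Ep300 and Crebbp, coactivators of HIF and of many other factors, rose by 0.35 and 0.33. With quantile normalization 1 of the 14 was called, since Siah2, Ep300 and Crebbp lost their calls. With 1 array left out, Crebbp lost its call in 6 of 6 fits and Siah2 and Ep300 in 4 of 6 each, while Siah1a kept its call in all 15 alternatives.

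Glycolytic HIF targets went both ways, 3 of 14 being higher and 1 lower, with a median of -0.073. Pfkp, the platelet form of phosphofructokinase, rose by 2.66 ± 0.15 SE (adjusted p = 3.06e-05). Aldoa and Pgam1, which encode an aldolase and a phosphoglycerate mutase, rose by 1.03 and 0.39, and the rise of Pgam1 was lost without KO replicate 1 or 2 (adjusted p = 0.0678 and 0.08). Pdk1, which blocks pyruvate dehydrogenase and is a classical HIF-1 target, fell 1.64-fold, from 8.80 ± 0.20 to 8.09 ± 0.26 (SD, n = 3, adjusted p = 0.0136). After control centring its difference was -0.28 and not called.

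Of 19 other HIF targets, 4 were higher and 2 lower, with a median of 0.021. Ddit4, also called REDD1, an inhibitor of mTORC1 that hypoxia, ATF4 and p53 can each induce, rose 8.87-fold, from 7.54 ± 0.09 to 10.69 ± 0.47 (SD, n = 3, adjusted p = 5.9e-05). Plin2, a coat protein of lipid droplets that PPARalpha also induces, rose 2.41-fold (1.27 ± 0.14 SE). P4ha2, a collagen prolyl hydroxylase, rose by 0.60. Insig2, which retains SREBP in the endoplasmic reticulum, fell 2.25-fold (-1.17 ± 0.24 SE, adjusted p = 0.0113). Those 4 genes kept their calls under each of the 15 alternatives that keep the threshold at 0.05. Besides them, Ero1a, an oxidase of protein folding, rose by 0.55, and Mxi1, an antagonist of MYC, fell by 0.54, calls lost in 3 and 2 of 15 alternatives; these names were added after their values were seen.

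The partners of Vegfa, Adm and Bnip3 were read next. Among 9 VEGF ligands and receptors, 2 were higher and 3 lower. Vegfc and Vegfd, which act on lymphatic vessels, were the higher ones: Vegfc rose by 0.46 ± 0.13 SE (adjusted p = 0.0338), and Vegfd rose at least 1.29-fold from WT arrays that were all below background (adjusted p = 0.0215). Vegfb and the coreceptor Nrp1 fell by 0.43 and 0.44, and Kdr, the main VEGF receptor of endothelium and a marker of it, fell by 0.31 (adjusted p = 0.0481). After control centring these 3 differed by 0.011, -0.00097 and 0.13, and none was called. With 1 array left out, calls were lost in 4 of 6 fits for Vegfc, 3 for Vegfd, 5 for Vegfb, 2 for Nrp1 and 6 for Kdr. Of 5 adrenomedullin receptor genes and the related peptide Adm2, 1 was higher and 1 lower. Adm2 rose 1.81-fold (0.86 ± 0.16 SE, adjusted p = 0.00742), and the receptor partner Ramp2 fell by 0.37 (adjusted p = 0.044), a call lost in 9 of 15 alternatives. Of 10 partners of BNIP3 and mitophagy genes, 1 was higher and 0 lower by limma (2 and 1 at an unadjusted p under 0.05). It was Fundc1, a mitophagy receptor that responds to hypoxia, which rose 1.73-fold (0.79 ± 0.15 SE, adjusted p = 0.00698) against the fall of Bnip3.

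**Figure D4:**
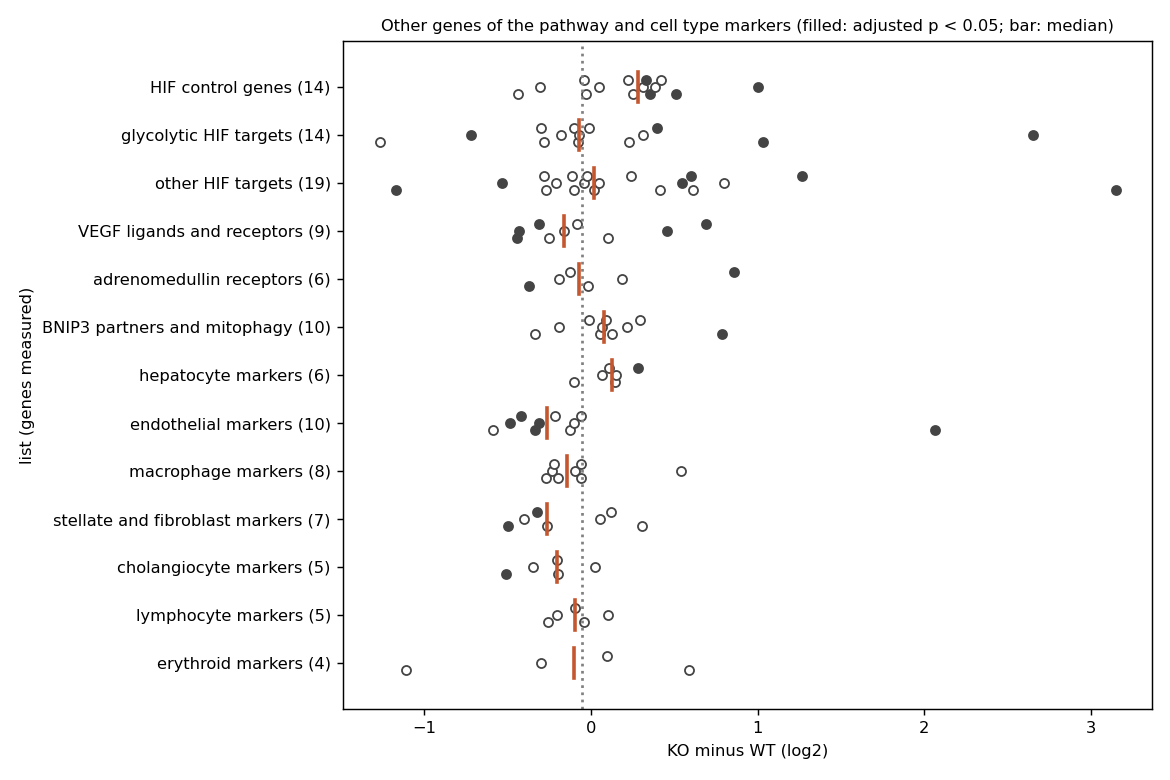
KO minus WT difference (log2, horizontal axis) of every measured gene of 6 pathway lists and 7 cell type marker lists, filled where the adjusted p was under 0.05, with the list median as a bar and the median of all genes as a dotted line. HIF control genes have the highest median (0.28), and the target lists spread to both sides.

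Markers of the cell types in the liver were read beside these genes. Hepatocyte markers had a mean log2 level of 13.63 to 13.71 in WT and 13.76 to 13.80 in KO, and 1 of 6, Ahsg, was higher (0.28), a call lost in all 6 fits with 1 array left out and with a replicate block (adjusted p = 0.0746). Among endothelial markers Tek, Clec4g and Eng fell by 0.48, 0.42 and 0.34, and Lyve1 rose at least 3.55-fold from WT arrays below background (adjusted p = 0.00287). The calls of Tek, Clec4g and Kdr were lost in 9 of 15 alternatives each, and that of Eng in 5. In stellate and fibroblast markers 2 of 7 were lower, Reln by -0.50 and Dcn by -0.33, the latter call being lost in 9 of 15 alternatives. The other probe sets of Reln and Dcn differed by -0.0041 and 0.10, and that of the endothelial marker Clec4g by 0.034. The other probe sets of Eng (-0.50) and of the uncalled stellate marker Des (-0.44) were called lower in the fit over all probe sets. In cholangiocyte markers 1 of 5 was lower. It was Krt19, which fell at least 1.13-fold to KO arrays all below background, with 1 WT array below it too (adjusted p = 0.0384), and its call was lost in 7 of 14 alternatives. Limma called 0 of 8 macrophage, 5 lymphocyte and 4 erythroid markers, with 1 erythroid marker lower at an unadjusted p under 0.05. By group mean, 3 of the 5 lymphocyte markers were below background in WT and 4 in KO. Of the 4 erythroid markers, 3 were below it in WT and 2 in KO, so these lists say little. The macrophage marker Marco has 2 probe sets, and in the fit over all probe sets the dimmer was called lower (-0.93). With a replicate block 1 erythroid marker, Alas2 (-1.11), was called lower (adjusted p = 0.00611, against 0.196 without it). Cd68 and Adgre1 differed by 0.54 and -0.27 and Cd3e by -0.26. Cd3g was below background on all 6 arrays. Slc4a1 was below it on all WT arrays and on KO replicates 1 and 2, and read 6.56 in KO replicate 3. The part of cell composition in the changes of the HIF pathway genes was not tested.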

How the data were processed

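Trizol-extracted total RNA of 6 livers was biotin-labelled and run on Affymetrix arrays, per the labels' protocols. The authors deposited log2 values made with RMA (background-corrected, quantile-normalized and summarised per probe set), as named without a version in the submitters' processing notes. Array medians of the deposited values were 5.078 to 5.103 in WT and 5.044 to 5.051 in KO. Quantile normalization of these values still moved differences, that of Egln1 from -0.29 to -0.41. Why it did so was not tested. The scale was inferred from the range of the values. Gene symbols came from the platform annotation of 2016, which gives 34945 of 45101 probe sets 1 symbol, 932 several and 9160 none, and 64 are controls. The gene table of GRCm38.p6 changed 0 symbols.

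The KO and WT groups were compared by limma 3.58.1 under R 4.3.3, two-sided, with Benjamini-Hochberg adjustment over 18193 genes and no filter. Background was the 95th percentile (4.90) of the means of 38 olfactory receptor genes. The script was checked on simulated data. With 3 arrays a group, the number of arrays limits the precision. Alternatives were other scalings, probe set choices, eBayes options, array weights, a filter, a stricter threshold, a replicate block and leaving out each array. Named list genes are up to 4 changed genes of a list with the largest difference and separate groups, or otherwise the 2 largest. The members and lists were chosen with earlier results of these data known. Replicate numbers came from the titles. They were not taken as pairs, since same-numbered arrays deviated together at r of 0.105, -0.018 and 0.105.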

Additional observations from a re-analysis of the deposited data

How the results depend on the processing

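In 16 alternatives Hif1a stayed higher and Epas1 lower. Hif1a was 0.23 and not called with the mean of its probe sets. Centring on the bacterial controls ended the calls of Epas1 (-0.17) and Bnip3 (-0.022), turned Egln1 (0.16) and Adm (0.34), and gave calls to Arnt (0.45), Vhl (0.62), Egln3 (2.01), Adm and Ankrd37 (0.45). It gave 6 members higher and 0 lower, 50 list genes higher and 1 lower, and 11086 genes in all higher and 475 lower, because it adds 0.44 to every difference. Quantile normalization turned Arnt (-0.12) and Vegfa (-0.089) and gave Egln1 a call (-0.41), as did the low-signal filter (-0.29), which tests fewer genes and drops Ankrd37. The mean of probe sets turned Arnt (-0.040), Vegfa (-0.074) and Adm (0.041) and left 0 members higher. Array weights turned Arnt (-0.018) and Vegfa (-0.12). The replicate block gave Egln3 a call (1.57, adjusted p = 0.0462), so that 2 members were higher, and it changed no other call of a member. Array median centring left 4 list genes lower. At a threshold of 0.01 Bnip3 (-0.46) was not called, which left 1 member lower. That threshold left 8 list genes higher and 0 lower (limma, against 7 lower at 0.05 and 13 at an unadjusted p under 0.05), and 1285 genes in all higher and 732 lower. Where no construction is named, the cause was not tested.

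With 1 array left out, Arnt ran from -0.031 to 0.030, Vegfa from -0.16 to 0.15, Ankrd37 from -0.082 to 0.057, Egln3 from 0.94 to 2.17 and Bnip3 from -0.58 to -0.35. Members higher numbered 1 to 2 and lower 1 to 2, list genes 8 to 16 higher and 2 to 6 lower, and all genes 1497 to 2424 higher and 888 to 1679 lower, the fewest of both without KO replicate 2. Of 30 called genes of the lists, markers included, 10 kept their call under all 15 alternatives at the threshold of 0.05.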

Other observations

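The HIF hydroxylases belong to the oxygenases that use oxygen and 2-oxoglutarate, a metabolite of the TCA cycle. A further 43 such enzymes were listed after the values above were seen, so their counts are a description. Limma called 8 of them higher and 2 lower, against 14.2% and 9.75% of all genes, with a median difference of 0.0062. Of 17 histone demethylases, 5 were higher and 0 lower by limma (7 and 0 at an unadjusted p under 0.05, against 20.0% and 18.5% of all genes), with a median of 0.22. The largest differences in this class were those of Kdm2b (0.81 ± 0.18 SE, adjusted p = 0.0153) and Kdm5a (0.68 ± 0.14 SE, adjusted p = 0.0118). The KO livers lay wholly above WT in 7 of the 17 and wholly below in 1, against 22.1% and 22.6% of all genes. The 17 leave out the histone demethylase Kdm3a, which was counted among the other HIF targets. It was not called (0.42, limma adjusted p = 0.283), and its groups overlapped. Of 12 DNA and RNA demethylases, 3 were higher, among them the alkylation repair enzyme Alkbh3 (0.62 ± 0.12 SE, adjusted p = 0.00972), and 1, Tet3, was lower (-0.39 ± 0.09 SE, adjusted p = 0.0152). Of 11 collagen and lysyl hydroxylases with their relatives, 1 was lower and 0 higher by limma, with a median of -0.20. At an unadjusted p under 0.05, 5 were lower and 1 higher. The KO livers lay wholly below WT in 6 and wholly above in 1, against 22.6% and 22.1% of all genes. The gene called lower was Plod1, a lysyl hydroxylase of collagen (-0.70 ± 0.14 SE, adjusted p = 0.00943). This class leaves out P4ha1, P4ha2 and Plod2, which are among the HIF targets above, and of those P4ha2 was higher (0.60, adjusted p = 0.00888). Centring on the bacterial controls adds 0.44 to each of these differences.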
